A study of Mus musculus with 6 samples.

Results

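The cytochrome P450 genes of families 1 to 3 were examined in regenerating mouse livers with and without the water and hydrogen peroxide channel Aqp5. Members were all genes in the table of liver RNA whose symbol starts with Cyp1, Cyp2 or Cyp3 followed directly by a letter, which gave 53 of 16858 genes in 15 subfamilies. All 53 had at least 1 count. Liver RNA was sequenced at 72 h after 70% partial hepatectomy (PHx) from wild-type C57 mice (Aqp5+/+, 3 libraries) and from Aqp5-/- mice (3 libraries), which the study produced with CRISPR/Cas9 in fertilized eggs. The study's methods give 3-month-old male mice for PHx and C57BL/6 for the wild-type strain. All livers had been resected, so each value describes a regenerating liver and not a resting one. Nothing in the sources used here states that the libraries came from separate mice, so the p-values measure the spread between libraries, which may be technical. Library totals ranged from 7130831 counts in Aqp5+/+ replicate 2 to 15550006 counts in Aqp5-/- replicate 3. Levels are given as CPM, counts scaled to a common library size. The hepatocyte markers, 9 of 10 of which were in the table, summed to 70251 to 115916 CPM in Aqp5+/+ and 103378 to 112099 CPM in Aqp5-/- libraries, with Aqp5+/+ replicate 2 the lowest. The deleted gene Aqp5 was not analysed here. The 4 Y-linked transcripts Ddx3y, Eif2s3y, Uty and Kdm5d summed to 287 to 471 CPM in the Aqp5+/+ libraries and to 0.869 to 1.19 CPM in the Aqp5-/- libraries, although the methods give male mice for both genotypes. Genotype and Y-linked expression were thus fully confounded. In every difference between the genotypes described below, the part of genotype and the part of sex cannot be told apart. This holds for sex-biased P450 genes and for all other genes and sums.

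Cytochrome P450 enzymes of families 1 to 3 are heme proteins of the endoplasmic reticulum that insert oxygen into drugs, pollutants, steroids and fatty acids, with electrons supplied by P450 oxidoreductase. In the liver most of them are made by hepatocytes around the central vein, under Wnt signalling and the receptors CAR, PXR and the Ah receptor, whereas a few such as Cyp2f2 belong to periportal hepatocytes. In mice several members are made mainly in female or mainly in male livers, a difference set by the pulse pattern of growth hormone acting through STAT5 and the repressors Bcl6 and Cux2.

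Aqp5-/- livers held higher levels of a group of P450 genes that are female-biased in mouse liver and lower levels of Cyp2u1 and Cyp2c67, while the abundant drug-metabolizing genes Cyp2e1, Cyp1a2 and Cyp2c29 were lower on average without passing the test. The lowering of those 3 genes was smaller without Aqp5-/- replicate 3, and Cyp3a11, also abundant, overlapped between the genotypes. After a filter on low counts 47 of the 53 members could be tested, and 41 of these were not called. A gene was called at an adjusted p under 0.05 from edgeR's quasi-likelihood test over all 12353 tested genes. Higher in Aqp5-/- livers were 4 members (Cyp2b9, Cyp3a41a, Cyp3a41b and Cyp3a44), beside 0.154% of all tested genes. With no filter on low counts edgeR called 0 of these 4, with adjusted p values of 0.12, 0.102, 0.11 and 0.14 in the same order, while their log2 fold changes were 5.98 to 6.70. Lower were 2 members (Cyp2c67 and Cyp2u1), beside 0.178% of all tested genes, which made 6 of 47 members in either direction beside 0.332%. At an unadjusted p under 0.05, 12 members were higher (4.3% of all tested genes) and 9 were lower (4.48%). The 3 libraries of one genotype lay wholly above or below those of the other for 22 of the 47 members, which is 46.8% of the members beside 14.7% of all tested genes. Of the 22, 12 were higher (6.93% of all tested genes) and 10 lower (7.8%). The median log2 fold change, Aqp5-/- against Aqp5+/+, was -0.35 over the tested members and 0.01 over all tested genes, with 20 members above 0 and 27 below. In fits that left out 1 library, the number of members called higher was 0 when any one of the 3 Aqp5+/+ libraries or Aqp5-/- replicate 2 was omitted, 2 when Aqp5-/- replicate 1 was omitted and 8 when Aqp5-/- replicate 3 was omitted. The number called lower was 1 when Aqp5+/+ replicate 2 or either of Aqp5-/- replicates 1 and 3 was omitted, and 0 for each of the other 3 libraries.

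**Figure D1:**
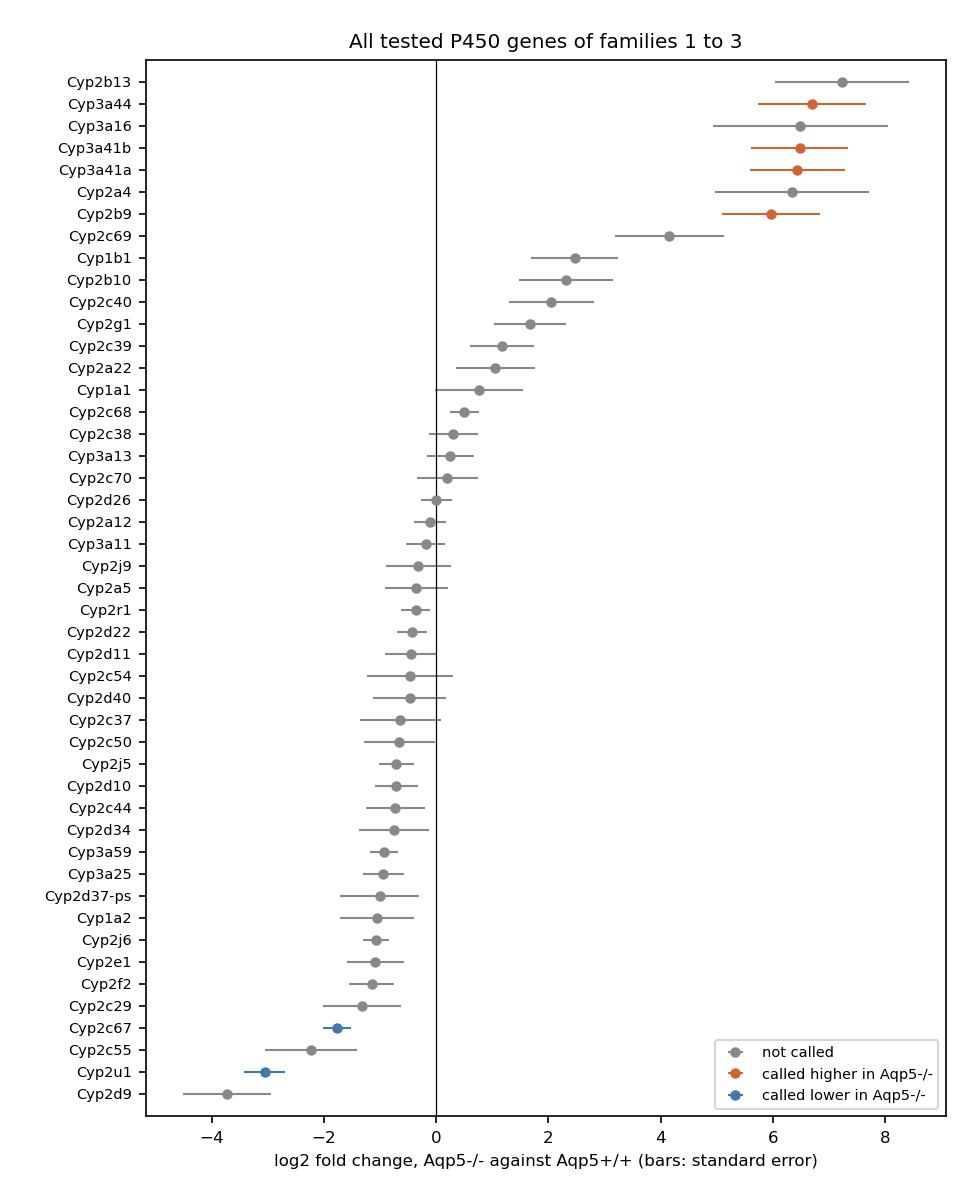
Log2 fold change of each of the 47 tested P450 genes, Aqp5-/- against Aqp5+/+ on the horizontal axis, with bars of 1 standard error; orange marks the 4 genes called higher, blue the 2 called lower and grey the 41 not called. The right end holds 7 genes with log2 fold changes from 5.97 to 7.24, and Cyp2d9 and Cyp2u1 lie at or near the left end at -3.73 and -3.06.

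Genes of the Cyp3a subfamily, which oxidize steroids and a wide range of drugs, showed the highest fold changes among the called members. Their female-biased members lie side by side on chromosome 5, and 3 of the 4 rose. Cyp3a44 (chr5:145773983-145805874 of GRCm38, minus strand) was at 2.85, 6.16 and 2.77 CPM in Aqp5+/+ replicates 1 to 3 and at 422, 720.2 and 52.6 CPM in Aqp5-/- replicates 1 to 3. All 3 Aqp5-/- libraries lay above the Aqp5+/+ libraries, and Aqp5-/- replicate 3 was the lowest of them. Mean levels were 3.92 ± 1.93 CPM and 398 ± 334 CPM (SD, n = 3 libraries each), and the gene rose by a log2 fold change of 6.70 (standard error 0.97, edgeR adjusted p = 0.0373). Cyp3a41a (chr5:145694049-145720136, minus strand) was at 1.17, 2.55 and 3.34 CPM in Aqp5+/+ and 225, 345 and 40.4 CPM in Aqp5-/- libraries. Cyp3a41b (chr5:145558664-145584730, minus strand), its near-identical copy, was at 2.18, 2.10 and 0.814 CPM in Aqp5+/+ and 144, 274 and 30.1 CPM in Aqp5-/- libraries. Neither copy overlapped between the genotypes, and in both the order of the Aqp5-/- libraries was that of Cyp3a44. Cyp3a41a rose by a log2 fold change of 6.43 (standard error 0.84, edgeR adjusted p = 0.0276) and Cyp3a41b by 6.48 (standard error 0.86, edgeR adjusted p = 0.0293). Their coding sequences are 99.9% identical, and 82.9% of the 150-base windows of Cyp3a41a also occur in another member, so reads may move between the copies or be lost. Their sum in the Aqp5+/+ libraries was 4.05 ± 0.657 CPM, and in the Aqp5-/- libraries it was 353 ± 275 CPM (SD, n = 3 each). Over the 6 fits that each left out 1 library, the edgeR adjusted p lay between 0.000446 and 0.342 for Cyp3a44, between 0.000446 and 0.334 for Cyp3a41a and between 0.000523 and 0.334 for Cyp3a41b.

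The other Cyp3a genes of the cluster did not pass edgeR's test. Cyp3a16, a form of fetal and female liver, was at 1.84, 0.901 and 0.814 CPM in Aqp5+/+ and 24.6, 302 and 4.05 CPM in Aqp5-/- libraries. The groups did not overlap, yet Aqp5-/- replicate 2 held most of the difference in the mean. Its log2 fold change was 6.49 (standard error 1.55, edgeR adjusted p = 0.257), and 3.55 without that library. Cyp3a11, the main Cyp3a enzyme of adult mouse liver and a target of PXR, was at 4128, 4353 and 3331 CPM in Aqp5+/+ and 3160.4, 2591 and 4640.5 CPM in Aqp5-/- libraries. The groups overlapped, and Aqp5-/- replicate 3 was the highest of all 6 libraries. For Cyp3a11 the log2 fold change was -0.18 (standard error 0.35, edgeR adjusted p = 0.875). Cyp3a13, a form shared by liver and intestine, was at 336, 269 and 663 CPM in Aqp5+/+ and 449.6, 709 and 349 CPM in Aqp5-/- libraries, with overlapping groups (log2 fold change 0.25, standard error 0.42, edgeR adjusted p = 0.862). In the order along the chromosome, Cyp3a16, Cyp3a41b, Cyp3a41a and Cyp3a44 stand together, between Cyp3a57, which had too few counts to test, and Cyp3a11.

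**Figure D2:**
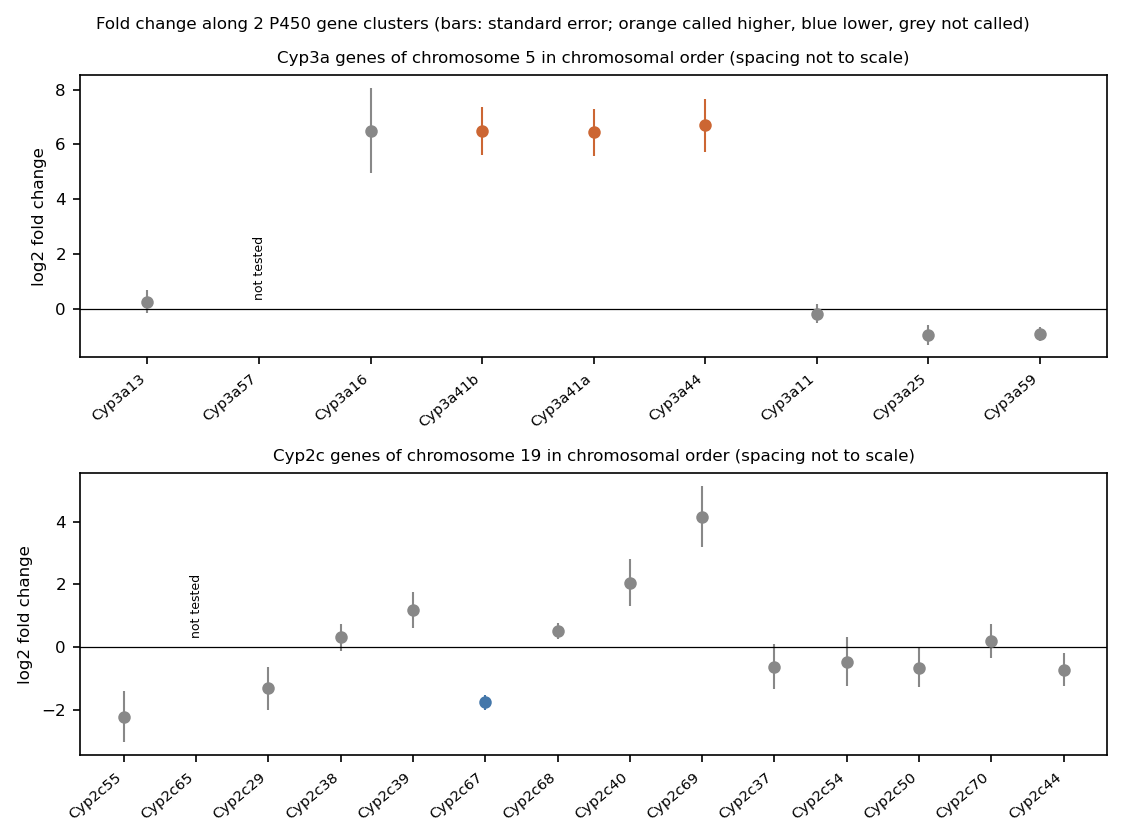
Log2 fold change (Aqp5-/- against Aqp5+/+, vertical axis, bars of 1 standard error) of the 9 Cyp3a genes of chromosome 5 and the 14 Cyp2c genes of chromosome 19 in their order along the chromosome, with spacing not to scale; orange marks genes called higher, blue lower, and grey not called. The 4 neighbours Cyp3a16 to Cyp3a44 lie at 6.43 to 6.70, whereas Cyp2c67 at -1.77 and Cyp2c69 at 4.16 lie 3 positions apart in the Cyp2c cluster.

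The stretches just before the transcription start are shown for the Cyp3a genes because 3 neighbours rose together and Cyp3a11 beside them did not pass the test. They come from RefSeq (GRCm38.p6), in which 45 of the 53 members had an entry, read 5′ to 3′ on the strand of the gene, and cover the last 150 bases before the RefSeq start at chr5:145720137-145720286 (Cyp3a41a), chr5:145584731-145584880 (Cyp3a41b), chr5:145805875-145806024 (Cyp3a44) and chr5:145879855-145880004 (Cyp3a11), all on the minus strand. Capitals mark ATTGAT on either strand, the core of the sites bound by HNF6 and Cux2.
Cyp3a41a: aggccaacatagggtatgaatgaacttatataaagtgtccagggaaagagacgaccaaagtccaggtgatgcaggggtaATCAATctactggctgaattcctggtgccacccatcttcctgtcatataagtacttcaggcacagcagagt
Cyp3a41b: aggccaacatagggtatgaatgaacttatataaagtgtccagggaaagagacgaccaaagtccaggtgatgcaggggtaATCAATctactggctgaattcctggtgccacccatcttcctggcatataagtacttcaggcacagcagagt
Cyp3a44: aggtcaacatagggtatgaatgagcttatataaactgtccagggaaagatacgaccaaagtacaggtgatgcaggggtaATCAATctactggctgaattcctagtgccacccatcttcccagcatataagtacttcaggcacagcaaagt
Cyp3a11: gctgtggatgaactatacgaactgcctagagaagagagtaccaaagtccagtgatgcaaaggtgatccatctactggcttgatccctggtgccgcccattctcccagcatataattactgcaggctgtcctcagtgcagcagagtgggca

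The stretch of Cyp3a41a was 99.3% identical to that of Cyp3a41b, 93.3% to that of Cyp3a44 and 65.5% to that of Cyp3a11, with gaps counted as differences. Only the alignment with Cyp3a11 held gaps, of 30 bases. Of the 135 bases aligned with Cyp3a11, 108 were identical. In the GENCODE annotation the Cyp3a11 transcript starts at position 145879964 on the minus strand, upstream of the RefSeq start used here. For Cyp3a41a, Cyp3a41b and Cyp3a44 both annotations give the same start. The Cyp3a11 stretch is thus placed differently, and its 65.5% may also depend on this. The letters ATTGAT, searched on both strands of the 250 bases before the start, were found in 11 of the 45 members (24.4%), in 5 of the 10 female-biased members with an entry (50%) and in 6.97% of 27025 promoters of the same length. The members with a match were Cyp3a16, Cyp3a41a, Cyp3a41b, Cyp3a44 and Cyp2c69 of the female-biased list. Outside that list they were Cyp1a2, Cyp2c37, Cyp2c50, Cyp2c67, Cyp2c68 and Cyp3a57. Cyp3a41a, Cyp3a41b and Cyp3a44 are close copies, and Cyp3a16 has 92.7% coding identity to Cyp3a41a. Cyp2c67 has 97.1% coding identity to Cyp2c68 and 97.7% to Cyp2c69, and Cyp2c37 has 96.1% to Cyp2c50. Matches within such a group of copies are not separate cases, so the shares of members count related promoters more than once. TTCNNNGAA, the site of STAT5, was in 0 of the 45 members and in 7.18% of all promoters, and GCGTG, the core of Ah receptor sites, was in 6 members (13.3%) beside 28.2% of all promoters. These matches describe letters in 1 window and are not evidence of binding.

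Cyp2b genes encode steroid hydroxylases, of which Cyp2b9 and Cyp2b13 are female-biased and Cyp2b10 is the classical target of the receptor CAR. Cyp2b9 (chr7:26173411-26210661, plus strand) rose from 5.78, 14.4 and 5.94 CPM in the Aqp5+/+ libraries to 894, 634 and 93.8 CPM in the Aqp5-/- libraries. The lowest Aqp5-/- library, replicate 3, was still above the highest Aqp5+/+ library, replicate 2. The log2 fold change of Cyp2b9 was 5.97 (standard error 0.87, edgeR adjusted p = 0.0384), from a mean of 8.71 ± 4.94 to 540.3 ± 408 CPM (SD, n = 3 each), and the adjusted p lay between 0.000794 and 0.292 with 1 library left out. Cyp2b13 was at 0, 0.300 and 0.163 CPM in Aqp5+/+, which came from 4 counts in all, and at 39.8, 22.3 and 2.92 CPM in Aqp5-/- libraries. The groups did not overlap, and the fitted log2 fold change was 7.24 (standard error 1.19) with an edgeR adjusted p of 0.0678. Cyp2b10 was at 7.63, 0.751 and 4.39 CPM in Aqp5+/+ and 10.4, 46.7 and 8.33 CPM in Aqp5-/- libraries. Aqp5-/- replicate 3 was here close to Aqp5+/+ replicate 1, and the log2 fold change of 2.31 (standard error 0.84) had an edgeR adjusted p of 0.482. It was 1.10 without Aqp5-/- replicate 2 and 3.00 without Aqp5+/+ replicate 1. Cyp2b9 and Cyp2b13 share 92.7% of their coding sequence but no 150-base window.

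Cyp2a4 and Cyp2a5 are a pair of close copies on chromosome 7 with 98.4% coding identity. Cyp2a4, a testosterone hydroxylase of female liver, was at 14.1, 13.7 and 8.71 CPM in Aqp5+/+ and 2099, 834 and 21.6 CPM in Aqp5-/- libraries. The groups did not overlap, but the Aqp5-/- libraries spread over a wider range than the distance between replicate 3 and the Aqp5+/+ libraries. With all libraries the log2 fold change of Cyp2a4 was 6.34 (standard error 1.37, edgeR adjusted p = 0.205), and without Aqp5-/- replicate 3 it was 6.91 (edgeR adjusted p = 0.00063). Without Aqp5-/- replicate 1 it was 5.14 (edgeR adjusted p = 0.28), and in the 5 fits that each left out a library other than Aqp5-/- replicate 3 the edgeR adjusted p lay between 0.273 and 0.638. Cyp2a5, the coumarin hydroxylase of pericentral hepatocytes, was at 1141, 325 and 704 CPM in Aqp5+/+ and 871, 603 and 225 CPM in Aqp5-/- libraries. These groups overlapped, with a log2 fold change of -0.35 (standard error 0.57, edgeR adjusted p = 0.853) that was above 0 without Aqp5+/+ replicate 1 (0.14) or Aqp5-/- replicate 3 (0.02). The summed level of the pair was 736 ± 409 CPM in Aqp5+/+ libraries and 1551 ± 1366 CPM in those of Aqp5-/- livers (SD, n = 3 each). Only 4.22% of the 150-base windows of Cyp2a4 occur in another member. Cyp2a12, a bile acid hydroxylase and the Cyp2a gene with the highest mean CPM over all 6 libraries, was at 968, 1074 and 774 CPM in Aqp5+/+ and 829, 763 and 1016 CPM in Aqp5-/- libraries, with overlapping groups (log2 fold change -0.11, standard error 0.28, edgeR adjusted p = 0.912). The stretches before the starts of Cyp2a4 and Cyp2a5 are shown because they differ little while their levels in Aqp5+/+ livers differ widely; they cover chr7:26307042-26307191 and chr7:26835189-26835338 on the plus strand and hold none of the 3 motifs searched.
Cyp2a4: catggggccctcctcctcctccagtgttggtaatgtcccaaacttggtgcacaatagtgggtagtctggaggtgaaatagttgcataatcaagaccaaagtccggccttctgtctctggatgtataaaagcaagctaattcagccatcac
Cyp2a5: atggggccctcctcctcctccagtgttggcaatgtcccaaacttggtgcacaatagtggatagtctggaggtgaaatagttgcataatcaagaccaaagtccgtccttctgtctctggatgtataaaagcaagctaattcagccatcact

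Over their alignment these 2 stretches were 96.7% identical, with 3 mismatches. Per kilobase of exon the mean level of Cyp2a4 was 6.99 CPM in Aqp5+/+ livers and 567 CPM without Aqp5, whereas that of Cyp2a5 was 349 and 273 CPM.

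The Cyp2c genes, which act on drugs and on arachidonic acid, form a gene cluster on chromosome 19, and Cyp2c67 was the only one of the 13 tested that edgeR called. Cyp2c67 (chr19:39608842-39649051, minus strand) fell from 316, 358 and 322 CPM in the Aqp5+/+ libraries to 119, 85.8 and 86.2 CPM in the Aqp5-/- libraries. The groups were far apart and the libraries within each were close together, Aqp5-/- replicate 3 included. Mean levels of 332 ± 22.5 CPM and 97.1 ± 19.2 CPM (SD, n = 3 each) gave a log2 fold change of -1.77 (standard error 0.25, edgeR adjusted p = 0.0326), with an adjusted p between 0.061 and 0.195 in the 6 fits with 1 library left out. Cyp2c69, a female-biased copy with 97.7% coding identity to Cyp2c67, was at 3.02, 6.46 and 3.01 CPM in Aqp5+/+ and 61.9, 149 and 6.73 CPM in Aqp5-/- libraries. Its lowest Aqp5-/- library was just above its highest Aqp5+/+ library, and the log2 fold change was 4.16 (standard error 0.98, edgeR adjusted p = 0.249). The summed level of Cyp2c67 and Cyp2c69 was 336 ± 24.5 CPM in Aqp5+/+ libraries and 169.6 ± 71.6 CPM in those of Aqp5-/- livers (SD, n = 3 each). Of their 150-base windows, 13% (Cyp2c67) and 22.5% (Cyp2c69) occur in another member, so part of their reads may have been shared or lost. Cyp2c40, a female-biased arachidonic acid hydroxylase, was at 9.22, 28.4 and 9.36 CPM in Aqp5+/+ and 71.9, 108 and 12.1 CPM in Aqp5-/- libraries. The groups overlapped through Aqp5-/- replicate 3, and the log2 fold change of 2.05 (standard error 0.76) had an edgeR adjusted p of 0.495. The stretches before the starts of the close copies Cyp2c67 and Cyp2c69 (chr19:39649043-39649192 and chr19:39886770-39886919, minus strand) are shown because the first gene fell and the second was higher without passing the test, with ATTGAT in capitals.
Cyp2c67: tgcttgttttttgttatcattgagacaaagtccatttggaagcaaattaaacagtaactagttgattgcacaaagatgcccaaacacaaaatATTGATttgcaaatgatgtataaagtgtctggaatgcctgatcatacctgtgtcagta
Cyp2c69: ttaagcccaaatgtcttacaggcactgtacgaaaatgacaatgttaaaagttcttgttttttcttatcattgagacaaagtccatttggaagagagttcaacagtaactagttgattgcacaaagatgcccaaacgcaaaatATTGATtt

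The annotated start of Cyp2c69 lies further upstream than that of Cyp2c67, so that 100 bases of the stretches could be aligned, of which 93 were identical. Both stretches hold an ATTGAT match.

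Cyp2u1 and Cyp2d9 are male-biased in mouse liver and were lower in every Aqp5-/- library. Cyp2u1 (chr3:131288441-131303227, minus strand), a hydroxylase of long-chain fatty acids, fell from 29.8, 29.9 and 31.7 CPM in Aqp5+/+ to 5.68, 2.43 and 2.86 CPM in Aqp5-/- libraries. The Aqp5+/+ libraries were nearly equal, and the highest Aqp5-/- library, replicate 1, was well below them. Mean levels of 30.5 ± 1.04 CPM and 3.66 ± 1.76 CPM (SD, n = 3 each) gave a log2 fold change of -3.06 (standard error 0.36, edgeR adjusted p = 0.0237). With 1 library left out the adjusted p was over 0.05 without Aqp5+/+ replicate 1 (0.144), Aqp5+/+ replicate 3 (0.0761) or Aqp5-/- replicate 2 (0.0806). Cyp2u1 has no close copy among the members. Cyp2d9, a testosterone hydroxylase, was at 3.27, 6.16 and 5.13 CPM in Aqp5+/+ and 0.811, 0.0869 and 0.179 CPM in Aqp5-/- libraries. These groups did not overlap, and the log2 fold change of -3.73 (standard error 0.79) had an edgeR adjusted p of 0.188. Cyp2d9 has 93.3% coding identity to Cyp2d11, a neighbour in the Cyp2d cluster of chromosome 15. Cyp2d26, the Cyp2d gene with the highest mean CPM over all 6 libraries, was at 489, 575 and 676 CPM in Aqp5+/+ and 476, 620.0 and 647 CPM in Aqp5-/- libraries, with group means of 580.1 ± 93.6 and 581 ± 91.8 CPM (SD, n = 3 each; edgeR adjusted p = 0.998).

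Of the 11 female-biased members on the list, 4 rose and 0 fell by edgeR's quasi-likelihood test, with 10 higher and 0 lower at an unadjusted p under 0.05, 8 higher and 0 lower by DESeq2 and 4 higher and 0 lower by limma. The median log2 fold change of these 11 was 6.34, beside 0.01 for all tested genes, and for 9 of the 11 all Aqp5-/- libraries lay above all Aqp5+/+ libraries (6.93% of all tested genes). Cyp2g1, an enzyme known from olfactory mucosa, is counted among the 9, but its nearest libraries were at 2.01 and 2.02 CPM (Aqp5+/+ 2.01, 0.601 and 1.87, Aqp5-/- 7.14, 5.56 and 2.02; edgeR adjusted p = 0.515). Of the 2 male-biased members, 1 fell, and the median log2 fold change was -3.40. The list was chosen with earlier results of these libraries known, so it is not independent evidence of a direction. Without Aqp5-/- replicate 3, 8 of the 11 female-biased members were called higher, beside 0.175% of all genes tested there, and 1 male-biased member, Cyp2u1, was called lower, beside 0.183%. Of the 9 genes of growth hormone signalling, 1 rose and 0 fell by edgeR, with 1 higher and 2 lower at an unadjusted p under 0.05 and 1 higher and 1 lower by DESeq2. The gene that rose was Cux2, a female-specific liver repressor, which was at 1.34, 3.90 and 0.732 CPM in Aqp5+/+ and 44.4, 109 and 33.0 CPM in Aqp5-/- libraries (log2 fold change 5.07, edgeR adjusted p = 0.0326). Its groups did not overlap, and the adjusted p was under 0.05 in 2 of the 6 fits with 1 library left out. Bcl6, a male-biased repressor, was at 30.9, 229 and 112 CPM in Aqp5+/+ and 46.8, 18.4 and 22.6 CPM in Aqp5-/- libraries, with overlapping groups (edgeR adjusted p = 0.415).

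**Figure D3:**
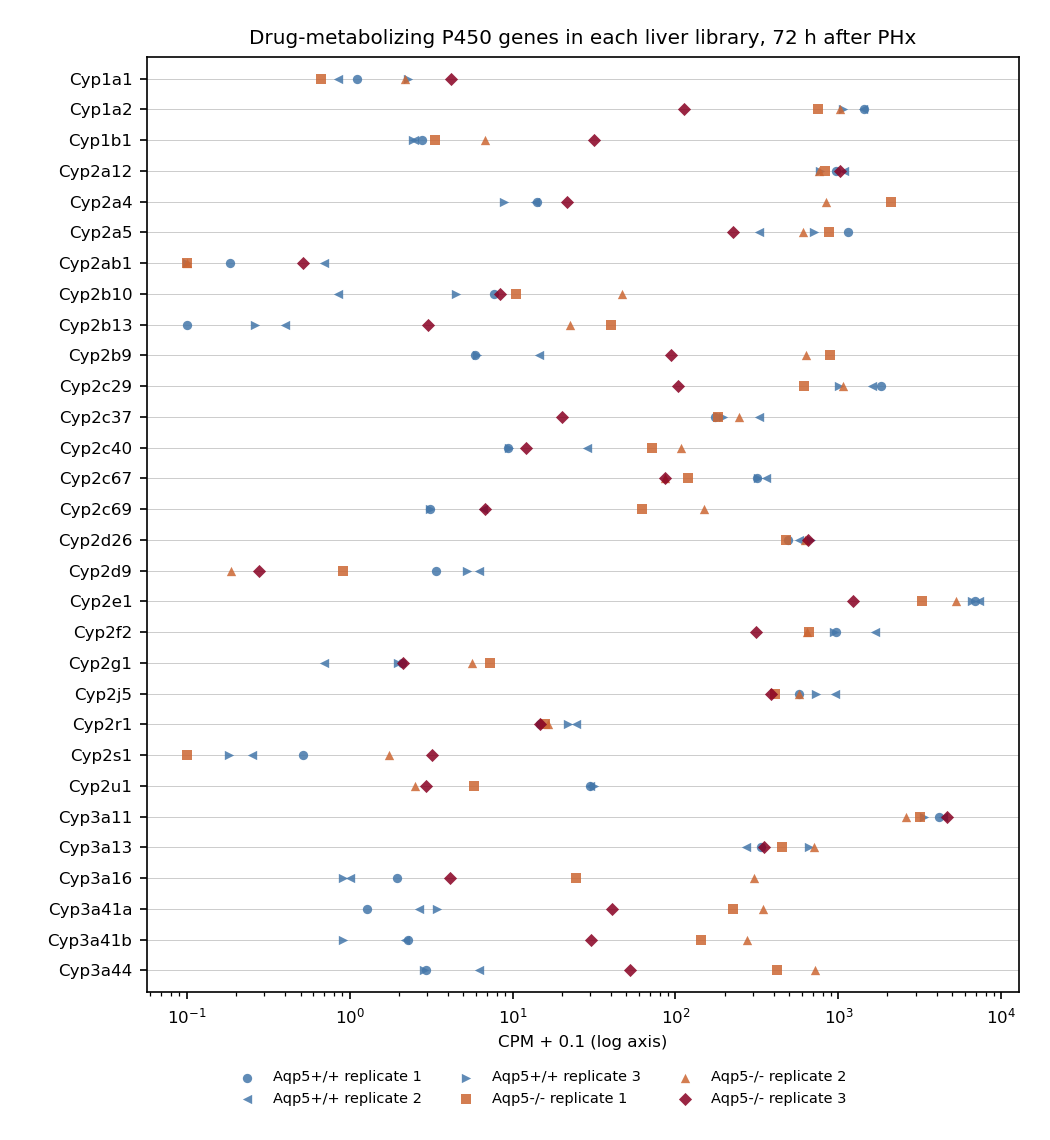
Level of each of the 30 P450 genes described one by one, as CPM plus 0.1 on a log axis, in the 3 Aqp5+/+ libraries (blue) and the 3 Aqp5-/- libraries (orange, with replicate 3 as a dark diamond). Cyp3a41a, Cyp3a41b, Cyp3a44 and Cyp2b9 lie to the right in Aqp5-/- libraries, from 30.1 to 894 CPM against 0.814 to 14.4 CPM, and the diamond is far to the left of both other Aqp5-/- libraries for Cyp1a2, Cyp2c29 and Cyp2c37.

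Pericentral P450 genes, which carry much of the drug metabolism of the liver, were lower on average in Aqp5-/- livers, but none of the 9 on the list was called. By edgeR 0 of 9 passed, with 0 higher and 1 lower at an unadjusted p under 0.05 and 0 by DESeq2 or limma. Their median log2 fold change was -0.66, beside 0.01 for all tested genes. Cyp2e1, which oxidizes ethanol and acetaminophen, was at 6845, 7275 and 6598 CPM in Aqp5+/+ and 3248, 5286 and 1233 CPM in Aqp5-/- libraries. All Aqp5-/- libraries were below the Aqp5+/+ libraries, and they differed widely among themselves. The log2 fold change of Cyp2e1 was -1.08 (standard error 0.50, edgeR adjusted p = 0.578). Cyp1a2, the Ah receptor target that metabolizes caffeine, was at 1443, 1415 and 1059.5 CPM in Aqp5+/+ and 752, 1024 and 112 CPM in Aqp5-/- libraries. Its groups did not overlap, though Aqp5-/- replicate 2 was next to Aqp5+/+ replicate 3 (log2 fold change -1.05, standard error 0.65, edgeR adjusted p = 0.653). Cyp2c29, an epoxygenase of arachidonic acid, was at 1831, 1613 and 1010.0 CPM in Aqp5+/+ and 619, 1059.8 and 104 CPM in Aqp5-/- libraries, which overlapped (log2 fold change -1.32, standard error 0.69, edgeR adjusted p = 0.604). Cyp2c37, which hydroxylates arachidonic acid, was at 175, 325 and 197 CPM in Aqp5+/+ and 183, 245 and 19.9 CPM in Aqp5-/- libraries, so that only Aqp5-/- replicate 3 stood outside the Aqp5+/+ range (log2 fold change -0.64, standard error 0.72, edgeR adjusted p = 0.794). In bulk tissue, fewer cells of a type and less RNA per cell cannot be told apart.

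The median level of pericentral genes was lowest in Aqp5-/- replicate 3. The median log2 level of the 9 pericentral P450 genes relative to the Aqp5+/+ mean was -0.42, -0.34 and -3.04 in Aqp5-/- replicates 1 to 3. In the 13 other pericentral genes, such as Lgr5 and Glul, the glutamine synthetase of the cells next to the central vein, it was -0.50, 0.09 and -1.08. The 13 other periportal genes, such as the urea cycle enzyme Cps1, were at 0.14, 0.13 and 0.31 in the same order. The median in replicate 3 was thus lowest for both pericentral lists and not for the periportal one. Single genes differed from this, since the pericentral Cyp3a11, Oat and Rnase4 did not have their lowest level in replicate 3, whereas the periportal Hal and G6pc did. Of the 13 other pericentral genes and of the 13 periportal genes 0 passed edgeR's test, 0 had an unadjusted p under 0.05 and 0 passed DESeq2 or limma, with median log2 fold changes of -0.47 and 0.06. Without Aqp5-/- replicate 3 the median log2 fold change was -0.46 over the pericentral P450 genes and -0.07 over the other pericentral genes. The log2 fold changes of Cyp2e1, Cyp1a2 and Cyp2c29 were -0.70, -0.56 and -0.82 in that fit, against -1.08, -1.05 and -1.32 with all libraries. Cyp2f2, the periportal member, which activates naphthalene in mice, was at 969, 1686 and 939 CPM in Aqp5+/+ and 662, 645 and 312 CPM in Aqp5-/- libraries. All its Aqp5-/- libraries were below the Aqp5+/+ libraries, but the log2 fold change of -1.15 (standard error 0.40) had an edgeR adjusted p of 0.467.

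**Figure D4:**
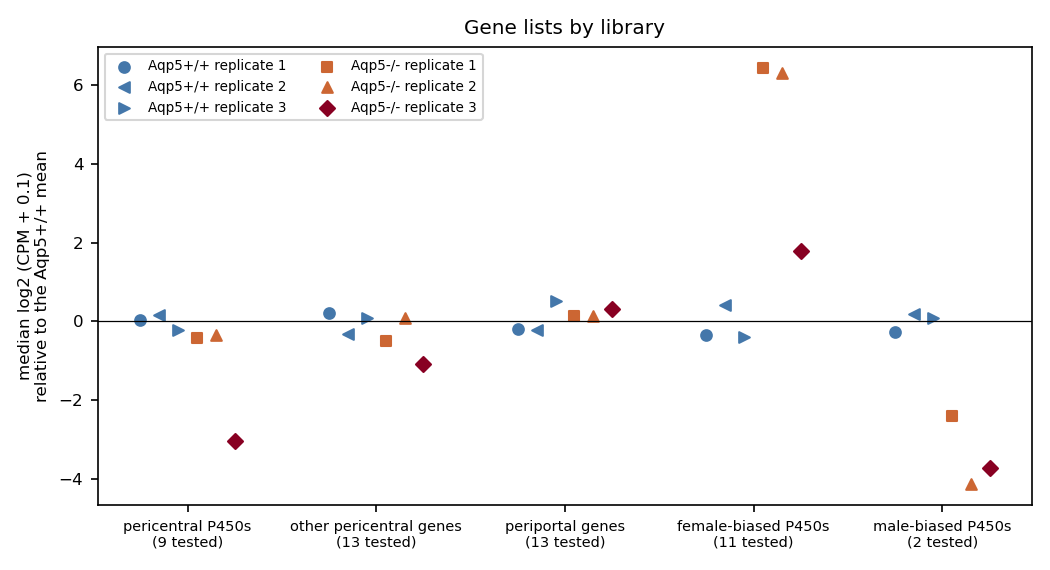
Median log2 of CPM plus 0.1 relative to the Aqp5+/+ mean (vertical axis) over 5 gene lists in each of the 6 libraries, with Aqp5-/- replicate 3 as a dark diamond. The diamond is at -3.04 for pericentral P450 genes and at -1.08 for other pericentral genes, and the female-biased list is at 6.44, 6.30 and 1.78 in Aqp5-/- replicates 1 to 3.

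The same library differed from its group across much of the family. In Aqp5-/- replicate 3, 26 of the 47 tested members (55.3%) were more than 2-fold below the mean of Aqp5-/- replicates 1 and 2, beside 8.14% of all tested genes, and 17 were more than 5-fold below it, beside 1.60%. It was the lowest of the 6 libraries for 21 members (44.7%, beside 23.7% of all tested genes), while Aqp5+/+ replicate 2 was the highest for 20 (42.6%, beside 27.9%). Among the Aqp5-/- libraries 22 members varied over 5-fold, beside 6.41% of all tested genes, whereas 2 did so among the Aqp5+/+ libraries, beside 6.47%. The lowered members included both pericentral genes, such as Cyp1a2, and female-biased ones, 10 of 11 of which were more than 2-fold below the other Aqp5-/- libraries. Cyp3a11, Cyp2d26 and Cyp2a12 were instead above the mean of the other Aqp5-/- libraries in it, and Cyp2c67 was 1.19-fold below. The summed markers of several other cell types were also highest in this library, but the endothelial and erythroid sums were not. Endothelial markers summed to 104 CPM in it, against 68.2 and 95.4 CPM in the other Aqp5-/- libraries (Aqp5+/+ 85.9 to 148 CPM). Erythroid markers summed to 74.3 CPM in it, against 53.6 and 43.3 CPM (Aqp5+/+ 64.7 to 134 CPM). The 5 cholangiocyte markers summed to 415 CPM in replicate 3, of which Spp1 was 337 CPM. The sum was 50.2 and 76.3 CPM in the other Aqp5-/- and 69.1 to 191 CPM in the Aqp5+/+ libraries. Krt19, Krt7 and Epcam were also highest in replicate 3, and Sox9 was not. The 5 stellate cell markers summed to 1063 CPM in replicate 3, against 366 and 390 CPM in the other Aqp5-/- libraries (Aqp5+/+ 404 to 473 CPM). Of this sum 573 CPM was Col1a1, which was at 23.9 and 50.2 CPM in the other Aqp5-/- libraries. Dcn and Acta2 were also highest in replicate 3. Lrat (30.1 CPM) and Reln (111 CPM) lay there within the range of the other Aqp5-/- libraries. Neutrophil markers, 4 of 8 of which were tested, were at 95.5 CPM in replicate 3 against 24.6 and 31.3 CPM (Aqp5+/+ 3.15 to 23.5 CPM). Most of this sum was S100a8 at 33.5 CPM and S100a9 at 43.7 CPM. Retnlg and Cxcr2 were also highest in replicate 3, whereas the untested Mpo, Ly6g, Camp and Elane were not. The 7 of 8 macrophage markers in the table were at 1461 CPM in replicate 3 against 966 and 674 CPM (Aqp5+/+ 313 to 555 CPM). Of the macrophage markers, Clec4f was instead lowest of the 6 libraries in Aqp5-/- replicate 3, at 97.9 CPM. The macrophage markers were also higher by genotype, with no overlap between the groups for 6 of 7 (6.93% of all tested genes). Of the 7, 0 were called by edgeR or limma and 3 by DESeq2, 6 were higher at an unadjusted p under 0.05, and the median log2 fold change was 1.28 (0.99 without Aqp5-/- replicate 3). None of these marker genes was at 0 in every library. Their part in the P450 differences was not tested.

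Cyp1a1 and Cyp1b1 are targets of the Ah receptor with low levels in normal hepatocytes. Cyp1a1 was at 1.01, 0.751 and 2.20 CPM in Aqp5+/+ and 0.568, 2.09 and 4.11 CPM in Aqp5-/- libraries, which overlapped (log2 fold change 0.75, standard error 0.78, edgeR adjusted p = 0.783). Cyp1b1, an estrogen hydroxylase made mostly outside hepatocytes, was at 2.68, 2.40 and 2.36 CPM in Aqp5+/+ and 3.25, 6.69 and 31.4 CPM in Aqp5-/- libraries. Aqp5-/- replicate 3 was far above the rest. The log2 fold change of Cyp1b1 was 2.47 (standard error 0.77, edgeR adjusted p = 0.41) and 1.00 without that library, and DESeq2 called the gene higher (DESeq2 adjusted p = 0.035). Of the other Ah receptor targets, 5 in number, 3 were tested and 0 passed by edgeR, with 2 higher and 1 lower at an unadjusted p under 0.05 and 0 by DESeq2 or limma. Nqo1, a quinone reductase, was at 10.1, 3.45 and 7.73 CPM in Aqp5+/+ and 13.3, 13.9 and 15.5 CPM in Aqp5-/- libraries, so its groups did not overlap (edgeR adjusted p = 0.53). Ugt1a6a went the other way, also without overlap, at 181, 170 and 151 CPM against 113, 141 and 82.2 CPM (log2 fold change -0.58, edgeR adjusted p = 0.564).

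Receptors and liver factors that control these genes were not called. Of 13 such genes 0 passed by edgeR, 0 had an unadjusted p under 0.05 and 0 passed DESeq2 or limma, with a median log2 fold change of -0.26. Nr1i3, which encodes CAR, was at 455, 811 and 457 CPM in Aqp5+/+ and 445, 715 and 257 CPM in Aqp5-/- libraries, and Nr1i2, which encodes PXR, was at 60.2, 172 and 90.7 CPM against 113, 119 and 147 CPM. Ahr, the Ah receptor, was at 167, 119 and 170 CPM against 122, 144 and 115 CPM. All 3 overlapped between the genotypes. Among 7 genes of electron supply and heme metabolism 0 passed by edgeR or limma, DESeq2 called 1 higher, and an unadjusted p under 0.05 was found for 1 higher and 1 lower gene. Por, the oxidoreductase that serves all of these enzymes, was at 414, 269 and 532 CPM in Aqp5+/+ and 416, 704 and 702 CPM in Aqp5-/- libraries, with overlapping groups (log2 fold change 0.59, edgeR adjusted p = 0.638). Alas1, the first enzyme of heme synthesis, was at 665, 213 and 719 CPM against 1091, 1001 and 630 CPM (log2 fold change 0.77, edgeR adjusted p = 0.644). Hmox1, the heme-degrading oxygenase that macrophages also make, was at 16, 9.91 and 19.4 CPM against 38.0, 27.9 and 165 CPM and did not overlap (log2 fold change 2.34, edgeR adjusted p = 0.333).

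Summed over all 53 members, P450 transcripts took 23250.1 ± 2162 CPM in Aqp5+/+ livers, against 17637 ± 5921 CPM in Aqp5-/- livers (SD, n = 3 each). The sums were 23373, 25347 and 21030 CPM in Aqp5+/+ and 19639, 22297 and 10975 CPM in Aqp5-/- replicates 1 to 3, so the groups overlapped and replicate 3 was lowest. The Cyp2b sum was 13.1 ± 2.5 CPM in Aqp5+/+ libraries and 584 ± 432 CPM, or 44.5-fold higher, in those of Aqp5-/- livers, without overlap. The Cyp1a sum was 1307 ± 213 and 632 ± 467 CPM, and the Cyp2j sum 974 ± 265 and 583 ± 133 CPM, in the same order and without overlap. For Cyp3a the sum was 4581 ± 296 and 4940 ± 341 CPM, with the higher female-biased copies beside lower or overlapping levels of the others. The Cyp2c sum was 4867 ± 555 and 3365 ± 2077 CPM, the Cyp2a sum 1685 ± 400 and 2443 ± 1299 CPM, and the Cyp2d sum 1663 ± 413 and 1256 ± 197 CPM, all with overlap (SD, n = 3 each). Levels can be compared between genes only per length. The length used here joins all annotated exons of a gene, so extra annotated exons lower the value. It was 5.09 kb for Cyp3a11 and 2.06 kb for its copy Cyp3a41a, and 3.06 kb for Cyp2c29 and 1.82 kb for Cyp2c39. The order of genes given next depends on these lengths. Per kilobase of exon Cyp2e1 had the highest mean level in both genotypes (3200.2 and 1509 CPM), followed in Aqp5+/+ livers by Cyp3a11 at 773, Cyp1a2 at 649, Cyp2f2 at 592 and Cyp2c29 at 485 CPM. In Aqp5-/- livers the second was Cyp3a11 at 680.2 CPM and the third was Cyp2a4 at 567 CPM, which rested on replicates 1 and 2, and Cyp2b9 was at 288 CPM, close to Cyp2a5 at 273 and Cyp1a2 at 313 CPM. The levels of Cyp2b9, Cyp2a5 and Cyp1a2 did not differ by more than their spread between libraries.

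**Figure D5:**
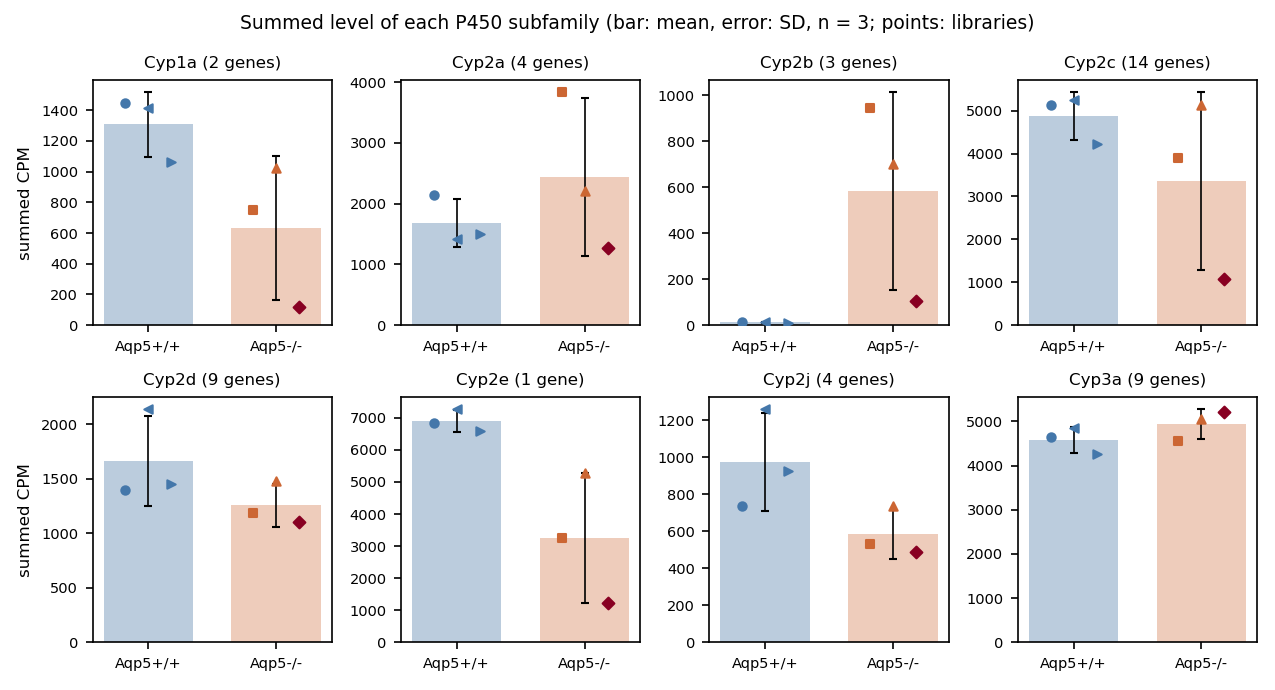
Summed CPM of the 8 main P450 subfamilies in Aqp5+/+ and Aqp5-/- livers; bars are means, error bars the SD of 3 libraries, and points single libraries, with Aqp5-/- replicate 3 as a dark diamond. The Cyp2b sum is 13.1 in Aqp5+/+ and 584 in Aqp5-/- livers, the Cyp3a sums are 4581 and 4940, and the diamond is the lowest point of Aqp5-/- in every panel except Cyp3a.

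Among single-gene subfamilies and the remaining members no further gene was called by edgeR. DESeq2 called Cyp2j6, chosen for mention after its values were seen, which was at 135, 191 and 168 CPM in Aqp5+/+ and 89.2, 80.4 and 65.2 CPM in Aqp5-/- libraries (DESeq2 adjusted p = 0.00911). Cyp2j5, an epoxygenase of arachidonic acid, was at 569, 949 and 729 CPM in Aqp5+/+ and 408, 576 and 386 CPM in Aqp5-/- libraries, with a slight overlap (log2 fold change -0.71, standard error 0.31, edgeR adjusted p = 0.564). Cyp2r1, a vitamin D hydroxylase, was at 14.6, 24.3 and 21.6 CPM against 15.8, 16.4 and 14.6 CPM, with overlap (log2 fold change -0.37, edgeR adjusted p = 0.702). Cyp2s1 was at 0.419, 0.150 and 0.0814 CPM against 0, 1.65 and 3.09 CPM, and Cyp2ab1 at 0.0838, 0.601 and 0 CPM against 0, 0 and 0.417 CPM. Both were among the 6 members with too few counts to test, whose highest count in any library was 52. The 23 members not plotted by library, Cyp2j6 among them, include the other 4 of these, and 0 of the 19 tested was called by edgeR, with 4 at an unadjusted p under 0.05. Of the 19, 14 had a log2 fold change below 0 and 5 above, between -2.23 for Cyp2c55 and 1.17 for Cyp2c39.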

How the data were processed

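Total RNA of regenerating liver (6 libraries) was depleted of rRNA, prepared with a stranded kit and sequenced. Per the labels and methods, the authors trimmed reads with cutadapt 1.9.3, aligned them with HISAT2 2.0.4 to mm10 and counted them per gene with HTSeq, and the deposited raw counts were used here as they stand. Whether the counting step used strand is not given in the sources used here. The 6 further per-sample columns, which hold values normalized by the authors, were not used. Identifiers were looked up in GENCODE vM21 (GRCm38), which held all 53 members, 1 under another symbol (Cyp2c44, there Cyp2c23) and 1 as a pseudogene (Cyp2d37-ps). HTSeq does not by default count reads that map equally well to several places, so close copies can lose counts, and whether such reads were kept is not given in the sources used here.

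The filterByExpr function (settings of 10 for the count in a library and 15 for the total) left 12353 genes for testing. The comparison of genotypes used edgeR 4.0.16 under R 4.3.3 (TMM scaling, robust quasi-likelihood test, 2-sided, Benjamini-Hochberg adjustment over all tested genes, no covariate). The same fit was run on counts simulated from the real means with the same spread for all genes (biological coefficient of variation 0.371). Those counts do not hold the wide spread of many members among the Aqp5-/- libraries. The standard error is the log2 fold change divided by the root of its F value. Levels per kilobase use the length of all exons of a gene in GENCODE, joined over its transcripts. Copies were compared by coding identity and by shared windows of 150 bases. Members described one by one were those called, the most abundant of each subfamily and 22 reference genes. Members and lists were chosen with earlier results of these data known. The alternatives were RLE factors, library totals alone, no filter, a mean of at least 1 CPM, DESeq2 1.42.0, limma 3.58.1 with a trend, the replicate number as a block, and each library left out in turn. Protein sequences were not used here.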

Additional observations from a re-analysis of the deposited data

How the results depend on the processing

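The 4 higher and 2 lower calls were the same genes with RLE factors, library totals alone, the stricter filter and limma. With no filter on low counts 0 members were called higher, and both lower calls remained. DESeq2 called 9 higher and 4 lower, among 232 of 16117 genes it called in all, against 41 of 12353 with edgeR. Beside the edgeR calls these were Cyp1b1, Cyp2a4, Cyp2b13, Cyp2c69 and Cyp3a16 higher, and Cyp2d9 and Cyp2j6 lower. The deviations of same-numbered libraries had correlations of -0.06, 0.23 and 0.15, and those of differently numbered ones lay between -0.24 and 0.09. These values do not settle whether the numbers pair the samples. With the replicate number as a block 2 members were called higher and 1 lower. In that fit edgeR no longer called Cyp2b9 and Cyp2c67 (adjusted p = 0.0671 each) or Cyp3a41a (adjusted p = 0.101). With 1 library left out, 0 to 8 were called higher and 0 to 1 lower. Fewer libraries enter those fits.

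Library totals alone moved the median log2 fold change of all genes from 0.01 to 0.17. With them the log2 ratio of the Cyp3a sums was 0.27 and the log2 fold change of Cyp2a12 was 0.049. Cyp2d26, whose log2 fold change was 0.003 with TMM, was at -0.00081 with RLE factors and -0.00072 by DESeq2. With 1 library left out, the log2 fold change ranged from -0.021 to 1.34 for Cyp1a1, -0.81 to 0.14 for Cyp2a5, -0.11 to 0.13 for Cyp2d26 and -0.088 to 0.73 for Cyp3a13, none of which was called. The median ranged from -0.069 to 0.37 over other periportal genes, -4.28 to -3.08 over male-biased members and -0.0098 to 0.61 over electron supply and heme genes. The cause of these shifts was not tested. The spread of over 5-fold among the Aqp5-/- libraries in 22 members limits the precision of their fold changes.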
